A study of Mus musculus with 2 samples.

Results

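The cells described here are precursor and immature B cells, 299 members in all: 181 of the 9390 cells that passed the cell filters in a library named pulse, and 118 of the 8445 in a library named chase. Members were chosen by their counts: a cell was one when it had at least 500 genes, at least 1000 unique molecular identifiers (UMIs, counted mRNA molecules) and less than 10% mitochondrial UMIs, at least 2 UMIs of the B cell receptor partners Cd79a and Cd79b together, at least 2 UMIs of Vpreb1, Igll1 and Vpreb3 together, no UMI of Ighd or Cd3e, and less than 30 UMIs of the stromal chemokine Cxcl12 per 10000. The genes of this gate were used to choose the members, so their presence in them is a description and no finding. Both libraries came from male Adipoq-CreER;Ai9 mice, in which the promoter of the adipocyte and stromal gene Adipoq drives a tamoxifen-dependent Cre that switches on the red reporter tdTomato. Tamoxifen was given by oral gavage at 8 weeks of age on 3 days, and bones were harvested 24 h later (pulse) or 4 weeks later (chase). Endosteal cells, freed by enzymes from the flushed bone of femur and tibia, were sorted for bright tdTomato, which held 0.01% of cells at the pulse time and 0.29% at the chase time. The labels name 4 mice without saying how many went into each library. With 1 library per harvest time, no difference between the libraries has a replicate check, and every interval below covers counting error only. The labels describe the sort as mesenchymal cells, so the B lineage cells are a minor class within it.

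B cells are made in the bone marrow from lymphoid progenitors that rearrange their immunoglobulin heavy chain genes, then divide, then rearrange a light chain gene. Before a light chain exists, the heavy chain is held by a surrogate light chain made of the products of Vpreb1 and Igll1, and this pre-B cell receptor drives a burst of division. Immature B cells carry a complete IgM receptor and, as they mature, begin to make IgD from Ighd and raise the genes of antigen presentation.

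The start regions of Vpreb1, Igll1 and Vpreb3 are shown first, because these genes carried the gate and the first 2 divide the members into the ranges used below. They are printed from RefSeq on the GRCm38.p6 build, 250 bases before to 50 bases after the annotated start, in the direction of transcription. Capitals mark letters found by a search on both strands for CCCNNGGG, the core bound by the early B cell factor Ebf1, and for CAGGTG, an E-box of the kind bound by the products of Tcf3. The Vpreb1 window lies at chr16:16869206-16869505 and the Igll1 window at chr16:16863936-16864235, both on the minus strand. The Vpreb3 window lies on another chromosome, at chr10:75948050-75948349 on the plus strand. In the GENCODE annotation Vpreb1 (chr16:16868403-16870843) and Vpreb3 (chr10:75943057-75949657) begin upstream of these windows. The matches below hold for the RefSeq starts, and other starts were not searched for these 2 genes.
Vpreb1: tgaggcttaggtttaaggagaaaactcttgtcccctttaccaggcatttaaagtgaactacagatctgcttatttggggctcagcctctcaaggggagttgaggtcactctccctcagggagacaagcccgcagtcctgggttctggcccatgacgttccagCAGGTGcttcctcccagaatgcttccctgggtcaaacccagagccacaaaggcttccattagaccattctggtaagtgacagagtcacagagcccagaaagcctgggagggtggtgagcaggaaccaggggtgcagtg
Igll1: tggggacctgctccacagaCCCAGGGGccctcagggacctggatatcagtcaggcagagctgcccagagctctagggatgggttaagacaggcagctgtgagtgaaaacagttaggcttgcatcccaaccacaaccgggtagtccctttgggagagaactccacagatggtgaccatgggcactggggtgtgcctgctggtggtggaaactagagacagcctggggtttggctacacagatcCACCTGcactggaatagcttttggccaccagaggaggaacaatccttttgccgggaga
Vpreb3: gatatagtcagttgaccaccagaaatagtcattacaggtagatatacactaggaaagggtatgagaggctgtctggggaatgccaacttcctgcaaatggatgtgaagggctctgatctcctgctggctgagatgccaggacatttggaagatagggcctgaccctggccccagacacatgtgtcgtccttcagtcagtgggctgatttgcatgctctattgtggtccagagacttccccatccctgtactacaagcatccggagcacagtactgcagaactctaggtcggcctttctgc
The Vpreb1 window held 1 E-box, 88 bases before the start, and no match to the Ebf1 core. The Igll1 window held the letters CCCAGGGG 231 bases before the start and the E-box letters CACCTG 8 bases before it. The Vpreb3 window held neither. Among 32851 promoter windows of the same length, 13.7% held the Ebf1 core and 20.2% the E-box, so a match is common and is given as a description, not as a site. The motifs for Ikaros (TGGGAA, in 25.6% of windows) and the TATA box (TATAAA, in 13.6%) were in none of the 3 windows.

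The label held for most members, but not for all of them. All 4 markers Vpreb1, Igll1, Vpreb3 and Pax5, the last being the transcription factor that holds B cell identity, were found in 17 of 181 pulse and 25 of 118 chase members. Exactly 1 was found in 54 pulse and 42 chase members, and Vpreb3 was found in all 299. Pax5, which the gate did not use, had a UMI in 119 pulse members (65.7%) and 63 chase members (53.4%). In myeloid cells (at least 5 UMIs of Lyz2), a class that should lack it, Pax5 had 2 UMIs over 1245 pulse cells and 1 UMI over 1223 chase cells, at median depths of 7693 and 9968 UMIs against 2120 and 7466.5 in the members. As a summed level, in counts scaled to 1000000 UMIs (CPM), Pax5 was at 325 in pulse and 129 in chase members and at 0.171 and 0.0707 in myeloid cells.

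A set of members carried the pattern of plasma cells, the antibody-secreting end of the lineage, and not that of precursors. These cells had between 349 and 996 UMIs of Jchain, which links secreted IgA and IgM chains, in the pulse library and between 167 and 3825 in the chase library, while every other member had 0 or 1. They numbered 4 of 181 pulse members (2.21%) and 26 of 118 chase members (22.0%), a share 9.97-fold higher in chase (3.46 to 39.3, exact interval). None had a Pax5 UMI. Igha, the IgA heavy chain gene, led the heavy chain UMIs in 3 of the 4 pulse cells and 24 of the 26 chase cells. Immunoglobulin genes and Jchain took a median of 60.5% of the UMIs of these pulse cells and 68.3% of these chase cells, against 2.14% and 0.450% in the remaining members. They met the gate through a median of 4.5 pulse and 3 chase UMIs of Vpreb3, in cells of 14731.5 and 20323 UMIs. The plot of immunoglobulin share against depth shows them as a separate cloud.

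**Figure D1:**
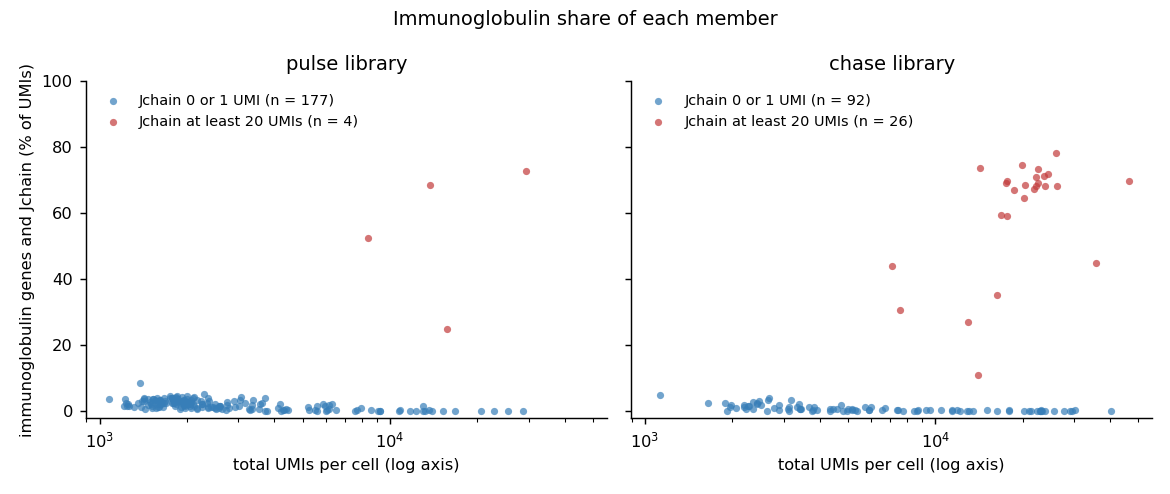
Share of UMIs from immunoglobulin genes, variable segments included, and Jchain (vertical axis, %) against total UMIs (horizontal axis, log scale). Each point is 1 cell of the 181 pulse and 118 chase members. The 4 pulse and 26 chase cells with at least 20 Jchain UMIs lie between 11.1% and 78.4%, above the other members.

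Other members carried RNA of a further lineage, which the gate does not remove. Counting 50 or more UMIs per 10000 of a marker list, 5 pulse and 1 chase members reached it for osteoblast genes, 2 and 1 for neutrophil genes, and 9 and 4 for monocyte or macrophage genes. For erythroid genes 0 pulse and 2 chase members reached it, and neither of the 2 was among the B precursors defined next. All 5 natural killer markers were at 0 in the pulse members, and in the chase members 4 of the 5 were found, at a summed 13.1 CPM with Ncr1 at 0. No barcode of a member was shared between the libraries, although 52 barcodes were shared in all, and a doublet caller marked 1 pulse and 0 chase members. The plasma cell pattern and the osteoblast, neutrophil and monocyte or macrophage cells were left out next, a choice made after seeing the data. This gave 162 pulse and 87 chase cells, called B precursors below. The name is short for precursor and immature B cells together. Ms4a1, the gene of the B cell surface protein CD20, had a UMI in 95 of these pulse cells and 13 of these chase cells. The gate is also close to its neighbours. Of the members, 28 pulse and 12 chase cells had the minimum of 2 UMIs, 10 of the latter with the plasma cell pattern. Another 55 and 29 cells fell just short with 1 UMI, and 73 and 22 were left out for a single Ighd UMI.

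Members made up 1.93% of pulse cells (1.66 to 2.23, exact Clopper-Pearson interval) and 1.40% of chase cells (1.16 to 1.67), a chase over pulse ratio of 0.725 (0.570 to 0.919). B precursors made up 1.73% and 1.03%, a ratio of 0.597 (0.455 to 0.780). The order did not hold at matched depth. With at least 2000 UMIs required, the ratio for the members was 1.20 (0.912 to 1.59), and with every cell thinned to 2000 UMIs it was 1.03 (0.751 to 1.41). The sort also collected a different percent of all cells at the 2 times (0.01% and 0.29%), and its part in the share cannot be told apart from that of time.

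Vpreb1 and Igll1 divided the B precursors into 2 kinds with few cells between them. In the pulse library 22 of 162 cells had at least 2 UMIs of the pair, 21 of them with both genes, none had exactly 1 UMI, and 140 had none. In the chase library 36 of 87 cells had at least 2 UMIs, 34 of them with both, 4 had exactly 1 and 47 had none. The 12 cycling genes (Mki67, Top2a and others of mitosis) split both kinds again: a cell with at least 3 UMIs of them is called cycling and the others resting. At that boundary 1 pulse and 1 chase cell had 2 UMIs, and 1 and 2 had 3. These are ranges cut from counts, not sorted types, and their shares depend on depth.

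**Figure D2:**
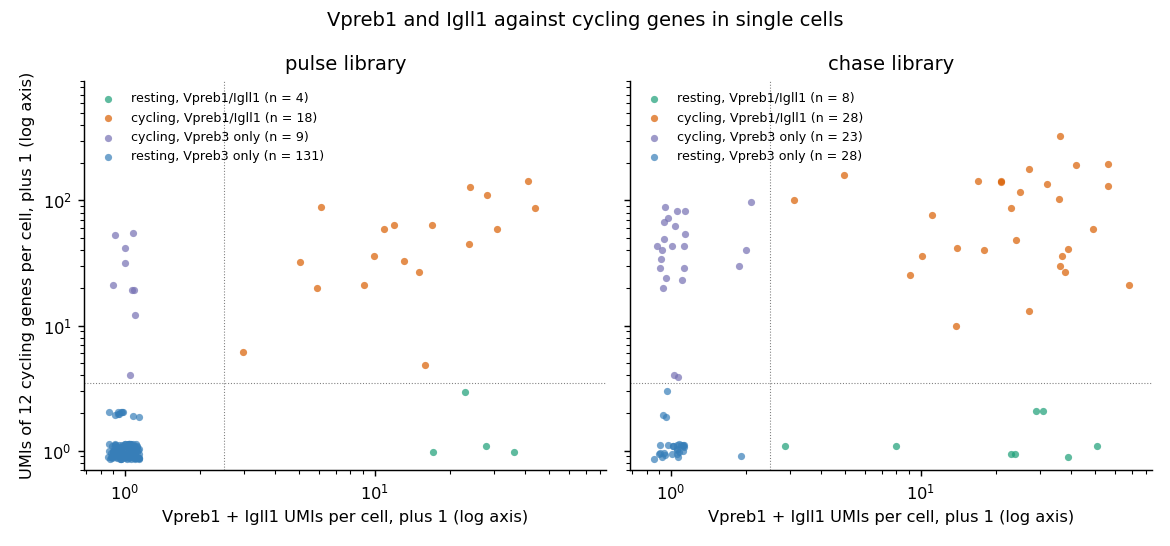
UMIs of 12 cycling genes (vertical axis) against Vpreb1 and Igll1 UMIs (horizontal axis) in each B precursor, both plus 1 on log axes with a small jitter, pulse (162 cells) and chase (87 cells); dotted lines mark the limits of 2 and 3 UMIs, and "Vpreb3 only" stands for cells with 0 or 1 UMI of Vpreb1 and Igll1. Resting cells without the pair fill the lower left corner of the pulse library (131 cells), and the chase library is spread over all 4 corners.

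The pulse library was mostly resting cells without Vpreb1 and Igll1, and the chase library was mostly cycling. Resting cells with the pair numbered 4 in pulse (2.47%) and 8 in chase (9.20%). Cycling cells with the pair numbered 18 (11.1%) and 28 (32.2%), and cycling cells without it 9 (5.56%) and 23 (26.4%). Resting cells without the pair numbered 131 (80.9%) and 28 (32.2%), a chase over pulse ratio of 0.398 (0.255 to 0.602). The cycling share of the B precursors was 16.7% in pulse and 58.6% in chase, 3.52-fold higher (2.16 to 5.83). Over all members it was 18.2% (12.9 to 24.6) and 51.7% (42.3 to 61.0). Median depth moved with it: 9259 and 19451 UMIs in the cycling cells with the pair, 1932 and 2448.5 in the resting cells without it. With members thinned to 2000 UMIs and shallower cells left out (78 pulse, 6 chase), the cycling shares were 30.1% and 43.8%, nearer to each other.

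Resting cells with Vpreb1 and Igll1 had the highest levels of Dntt and Lef1 of the 4 ranges. Of the 7 pro-B markers, 4 were found in the 4 pulse cells and 5 in the 8 chase cells, with Flt3 and Cd34 at 0 in both and Kit at 0 in pulse. Their level of Vpreb1, a gene of the gate, was 5084 in pulse and 4094 in chase, and it was 791 and 881 in the cycling cells with the pair. Dntt, which encodes the terminal transferase that adds bases at heavy chain joints, was at 1235 CPM in pulse (719 to 1977, exact Poisson interval, 17 UMIs in 3 of 4 cells) and 1081 in chase (744 to 1518, 33 UMIs in 6 of 8). Resting cells without the pair had no Dntt UMI among 131 pulse and 28 chase cells, so Dntt was at least 119-fold higher in pulse and at least 26.8-fold higher in chase against a floor of 3 UMIs over the group. Lef1, a transcription factor of early lymphoid cells, followed the same order, from 726 and 950 CPM to 31.2 and 13.5 CPM. Erg, which marks progenitors, had 4 and 16 UMIs in the resting cells with the pair and 1 and 0 in the resting cells without it. The stem and progenitor receptor genes Kit and Flt3 had at most 2 UMIs in any of the 4 ranges, too few to order the ranges.

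The recombinase gene Rag1, which cuts the immunoglobulin loci, was found in both resting ranges and was lower in cycling cells with the pair. In resting cells with the pair it was at 291 CPM in pulse and 459 in chase, from 4 and 14 UMIs. In cycling cells with the pair it had 0 UMIs in 18 pulse cells and 7 UMIs (13.8 CPM, 5.56 to 28.5) in 28 chase cells. In cycling cells without it, 9 pulse cells had 0 UMIs and 23 chase cells had 14 (102 CPM, 55.5 to 170). In resting cells without the pair it was at 285 CPM (226 to 353) in pulse and 404 (272 to 576) in chase. The fold over cycling cells with the pair was at least 18.2 in pulse and 29.2 (12.6 to 78.8) in chase. Rag1 had 1 UMI over all myeloid cells in each library and none in mature B cells. Its partner gene Rag2 had at most 11 UMIs in any range, too few to order them.

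Il7r, the receptor for the marrow cytokine interleukin 7, was present in all 4 ranges of both libraries and low in mature B cells. It was at 436 CPM in pulse and 721 in chase in resting cells with the pair, 302 and 235 in cycling cells with it, 224 and 341 in cycling cells without it, and 354 and 579 in resting cells without it. The intervals of neighbouring ranges overlapped in pulse. Mature B cells had Cd79a and Cd79b, had Ighd, and had fewer than 2 UMIs of Vpreb1, Igll1 and Vpreb3 together. The plasma cell pattern and the osteoblast, neutrophil and monocyte or macrophage cells were left out (143 pulse, 34 chase). Cells with Ighd and at least 2 UMIs of these genes were neither members nor mature B cells. They numbered 73 pulse and 22 chase cells with 1 Ighd UMI, and 44 and 7 with more. Il7r was at 41.3 CPM and 0 in mature B cells. Cd93, a surface protein of immature B cells, was likewise found in all 4 ranges, from 142 to 306 CPM in pulse and from 145 to 459 in chase. In mature B cells it was at 36.9 and 79.5 CPM, from 17 and 10 UMIs. Over all B precursors Cd93 was 4.54-fold higher than in mature B cells in pulse (2.68 to 8.13). With 1 mature cell of basophil or mast cell markers left out, it was 1.88-fold higher in chase (0.987 to 4.01), under the 2-fold rule. Myb, a factor of lymphoid progenitors, was at 654 and 1245 CPM in resting cells with the pair and at 73.9 and 23.9 in mature B cells, where all 3 chase UMIs came from 1 cell with basophil or mast cell markers. Ebf1, the transcription factor that opens the B cell program, was at 6392 and 5699 CPM in resting cells with the pair and at 1388 and 1185 CPM in mature B cells.

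**Figure D3:**
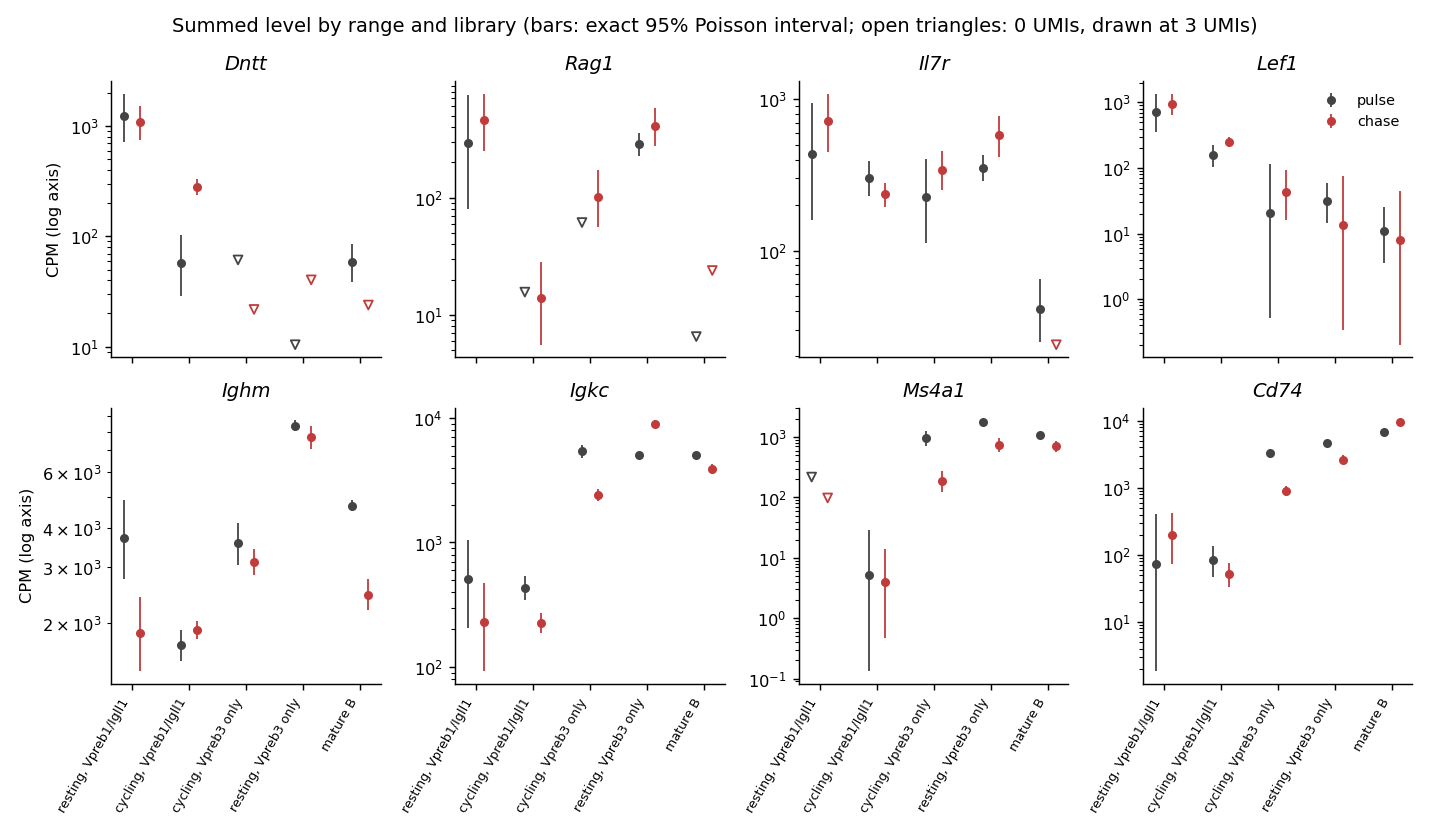
Summed level in CPM (vertical axis, log scale) of 8 genes in the 4 ranges of B precursors and in mature B cells, pulse and chase; bars are exact 95% Poisson intervals and open triangles mark 0 UMIs, drawn at the level of 3 UMIs. Dntt and Lef1 are highest in resting cells with Vpreb1 and Igll1, Rag1 is low in cycling cells with the pair, and Cd74 is higher in both ranges without the pair and in mature B cells than in the ranges with it.

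Cycling cells with and without the pair differed in more than the pair. Of the genes with at least 50 UMIs, 16.9% of 682 in pulse (8.06% higher without the pair, 8.8% lower) and 20% of 1836 in chase (9.75% and 10.2%) were at least 2-fold apart with an interval that left out 1. Late maturation and antigen presentation genes were higher without the pair in 5 of 5 measured in pulse (median log2 ratio 3.15, against -0.23 over all genes) and in 5 of 6 in chase (2.12, against 0.00). Cd74, the invariant chain that guides MHC class II molecules, was at 83.3 CPM in pulse and 51.3 in chase with the pair, and at 3263 and 900 without it. Igkc, the kappa light chain gene, went from 432 and 227 CPM to 5405 and 2423. In myeloid cells, which were chosen without Cd79a and Cd79b UMIs, Igkc was 20.0 CPM in pulse and 111 in chase. Immediate early genes, which respond within minutes to signals and to handling, were higher without the pair in 11 of 11 measured in chase (median 2.53) and in 4 of 6 in pulse (1.55). Fos, a subunit of the factor AP-1, was at 105 CPM with the pair and 958 without it in chase, and at 333 and 938 in pulse. The chaperone genes Hsp90ab1, Hspe1 and Hspd1 were lower without the pair in both libraries, Hspd1 by 3.62-fold in pulse (1.48 to 11.5) and 4.13-fold in chase (2.49 to 7.35). Among 18 transcription factors measured in chase, Pax5, Bach2, Sox4, Spib, Irf4 and Klf2 were higher without the pair and Lef1 was lower.

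Cycling cells with the pair were also set against resting cells without it, the most different ranges by the cuts. In both libraries 23.9% of 1266 genes were called the same way, 13.8% higher in the cycling cells and 10% lower (36.6% of genes called in pulse and 37.7% in chase, each alone). The cycling genes chose these ranges, so the 8 of 8 mitosis and 8 of 8 S phase genes that were higher are a description. Of 13 receptor signalling genes 8 were lower in the cycling cells, among them the kinase genes Syk and Lyn, while Cd24a was higher. Cd24a, a surface protein of immature lymphocytes, was at 2170 and 1959 CPM in cycling cells with the pair and 941 and 726 in resting cells without it. Nrgn, known from neurons as a calmodulin-binding protein, had no UMI in resting cells without the pair and was at 349 and 322 CPM in the cycling cells, at least 33.5-fold and at least 7.97-fold higher. Of 16 transcription factors Pax5, Sox4, Spib, Irf4 and Klf2 were lower in the cycling cells, and Cxcr4 was the 1 receptor of 6 called, 6.54-fold lower in pulse (3.91 to 11.7) and 4.15-fold in chase (2.5 to 6.78).

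The lambda constant genes Iglc1, Iglc2 and Iglc3 had no UMI in either range with the pair, in 22 pulse and 36 chase cells. In resting cells without the pair Iglc1 was at 4973 CPM in pulse and 1278 in chase, at least 319-fold and at least 216-fold above the floor of the cycling cells with it. Ighm, the heavy chain of IgM, was found in all ranges, at 3704 and 1867 CPM in resting cells with the pair, 1707 and 1911 in cycling cells with it, and 8364 and 7709 in resting cells without it. Iglc2 and Iglc3 are near-copies (95.3% identity over 450 aligned bases), as are Vpreb1 and Vpreb2 (97.5% over 686), so how reads were divided within each pair is uncertain. Vpreb2 had 25 UMIs in the pulse members and 45 in the chase members.

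Light chain usage of the resting cells without the pair differed between the libraries. Among cells with at least 10 light chain UMIs, 60 of 112 pulse cells (53.6%, 43.9 to 63.0) had at least 90% lambda UMIs, 12 (10.7%) had at least 90% Igkc, and 40 (35.7%) were mixed. In chase 15 of 24 cells (62.5%, 40.6 to 81.2) were kappa, 2 (8.33%, 1.03 to 27.0) were lambda and 7 were mixed. Lambda cells were the largest class in pulse and kappa cells in chase. Mature B cells of the pulse library had 38 lambda and 19 kappa cells of 134, and those of the chase library 8 and 9 of 33. Their largest class was mixed in both libraries, 77 cells (57.5%) and 16 cells (48.5%). Neither free light chain RNA nor doublets were tested as a source of the mixed cells. In pulse, Ms4a1 (the B cell surface protein CD20) was at 2444 CPM in lambda cells, 1913 in mixed cells, 449 in kappa cells and 53.7 in the 19 cells with fewer light chain UMIs. Rag1 was at 832 CPM in those 19 cells, 337 in kappa cells, 265 in lambda cells (180.0 to 376) and 103 in mixed cells (51.2 to 184). Both genes had a higher level in lambda than in mixed cells, but with overlapping intervals, for Ms4a1 2169 to 2744 and 1660 to 2193. In chase the order of the classes differed: the 2 lambda cells had no Ms4a1 UMI and 4 of Rag1 (991 CPM, 270.0 to 2538), kappa cells had 520 CPM of Ms4a1 and 407 of Rag1, and the 7 mixed cells had 2102 and 63.7.

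**Figure D4:**
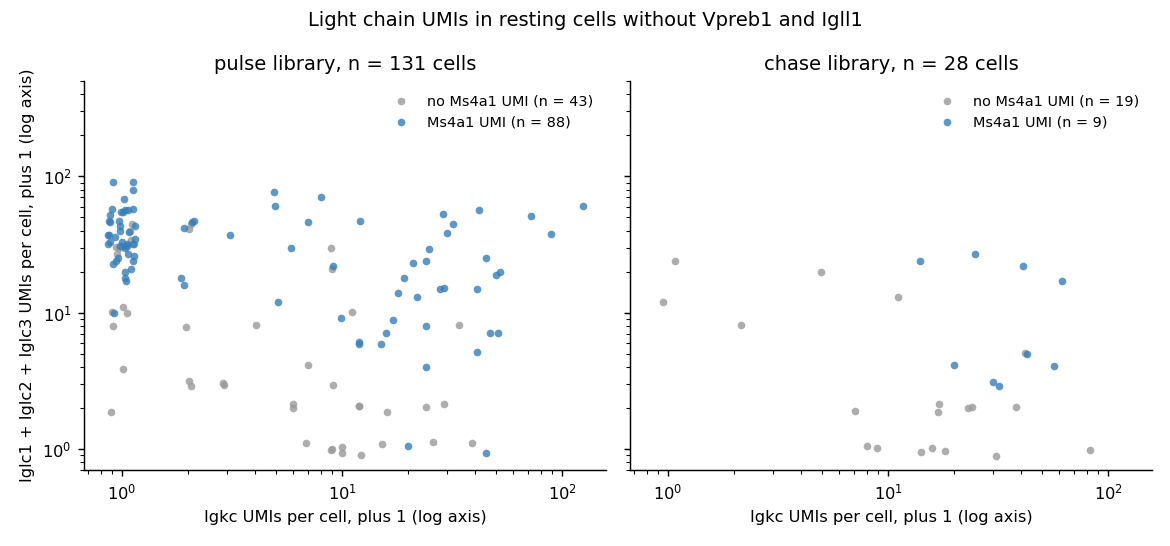
UMIs of Iglc1, Iglc2 and Iglc3 together (vertical axis) against Igkc UMIs (horizontal axis) in each resting B precursor without Vpreb1 and Igll1, both plus 1 on log axes with a small jitter, coloured by whether the cell had an Ms4a1 UMI. The upper left of the pulse panel holds the lambda cells (60 of 112 cells with enough light chain UMIs), and the chase panel has 2 such cells.

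At the single-cell level Rag1 and Ms4a1 were found apart in more of these resting cells than together. In pulse, 25 cells had Rag1 without Ms4a1, 75 had Ms4a1 without Rag1, 13 had both and 18 neither. In chase the numbers were 9, 9, 0 and 10. At a median depth of 1932 and 2448.5 UMIs a gene of low level is often missed, so a 0 in a cell is no absence.

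The chase and pulse members were next compared gene by gene. Over all 299 members, 17.9% of 4741 genes with at least 50 UMIs were at least 2-fold apart with an interval that left out 1, 82 higher in chase (1.73%) and 768 lower (16.2%). The median log2 ratio of all genes was -0.39, and immunoglobulin RNA took 25.1% of the chase UMIs and 6.36% of the pulse UMIs. Most of the genes highest in chase belong to the plasma cell pattern. Igha was at 58104 CPM against 6955, Jchain 7.87-fold higher (7.54 to 8.21), Ccr10, a homing receptor of IgA plasma cells, 6.44-fold (3.14 to 15.4), and Tent5c 4.14-fold (2.72 to 6.57). Ighg2c was 126-fold higher, but 99.8% of its chase UMIs came from 1 cell. Mpo, a granule enzyme of myeloid precursors, drew 90.4% of its chase UMIs from 1 cell. The lowest were neutrophil granule genes (S100a8, S100a9, Ngp, Camp, Lcn2, Ltf, Wfdc21), of which 70.5% to 93.0% of the pulse UMIs came from 1 cell.

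Among B precursors the same comparison called 13% of 3743 genes, 147 higher in chase (3.93%) and 339 lower (9.06%), with a median log2 ratio over all genes of -0.05. Late maturation and antigen presentation genes were lower in chase in 14 of 15 measured (median -2.54). Ms4a1 was at 1018 CPM in pulse and 112 in chase (9.08-fold lower, 7.21 to 11.6), Cd74 at 2791 and 470, and Ltb, a membrane lymphotoxin chain, 11.2-fold lower from 97 pulse and 12 chase UMIs. All 5 immunoglobulin constant genes measured were lower in chase, Iglc2 by 39.1-fold (29.3 to 53.5) and Ighm by 2.02-fold. Mitosis genes were higher in 10 of 15 (median 1.14) and S phase genes in 4 of 14 (0.79), with Mki67 at 440 and 1025 CPM. The cycling share was 16.7% in pulse and 58.6% in chase, and its part in these differences was not tested.

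Of the B lineage transcription factors, 1 of 23 measured was higher in chase and 5 were lower (median -0.55). Over all genes 3.93% were higher and 9.06% lower, the shares to set beside the list counts given here. The higher one was Lef1, at 92.1 CPM in pulse and 219 in chase. The lower ones were Foxo1, Ikzf3, Spib, Pou2f2 and Myc, with Pou2f2, the factor Oct-2 of mature B cells, at 278 and 66.7 CPM. Receptor signalling genes were lower in 5 of 16, among them Bank1, a scaffold of receptor signalling (19.1-fold lower, 8.41 to 53.5), and Cd22, an inhibitory receptor (127 and 54.7 CPM). Cytokine, chemokine and niche receptors were lower in 5 of 12: Il2rg, Cxcr4, Ccr7, S1pr1 and Tnfrsf13c. Cxcr4, which binds the stromal chemokine Cxcl12, was at 355 CPM in pulse and 159 in chase, and Tnfrsf13c, the receptor for the survival factor BAFF, at 182 and 61.4. In the V(D)J recombination list Dntt alone of 6 measured passed the 2-fold rule, 4.56-fold higher in chase (3.05 to 7.06, 28 and 176 UMIs in 7 and 14 cells).

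Immediate early genes were lower in chase in 7 of 14 (median -1.05), with Egr3 at 57 UMIs in pulse and 3 in chase. Glucocorticoid response genes were lower in 3 of 5, the interferon list in 1 of 6 (Ifi27l2a) and cell survival genes in 2 of 6 (Mcl1 and Birc3). Heat shock genes were higher in 1 of 9 (Hspd1). Over all genes 3.93% were higher in chase and 9.06% lower. The single genes of the interferon and heat shock lists are not read as a result about those lists. A change in the makeup of the cells and a change within cells cannot be told apart in these sums.

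Fewer genes, and a smaller share of them, were called within single ranges. These ranges also held fewer UMIs, which widens the intervals. Cycling cells with the pair had 192155 UMIs in pulse and 506451 in chase. Resting cells without it had 288130 and 74330, against 543085 and 749137 over all B precursors. A gene without a call is therefore not shown to be unchanged. Within cycling cells with the pair, 4.18% of 1960 genes were called, 33 higher (1.68%) and 49 lower (2.5%) in chase, with a median over all genes of -0.02. No mitosis gene of 14 and no S phase gene of 13 was called there (medians 0.02 and 0.02). Mitosis genes, Mki67 and Top2a among them, chose this range in both libraries. The lack of a call in the mitosis list is therefore a description and no finding. Mki67 was at 921 CPM in pulse and 1147 in chase. Dntt was 4.93-fold higher in chase (2.68 to 10.1), with UMIs in 4 of 18 pulse cells and 8 of 28 chase cells, and up to 30 UMIs in a single chase cell. Lars2, a mitochondrial leucine tRNA synthetase gene, was at 224 CPM in pulse and 648 in chase. Ly6d, a surface protein of committed B lineage cells, was 5.43-fold lower (2.96 to 10.3), and 4 of 7 immediate early genes were lower. Macrophage genes stood among the lowest, Hmox1, Gdf15, Vcam1, Ctsd, C1qa, Ctsb, Selenop and Apoe, and 1 pulse cell gave 50.5% to 89.4% of the pulse UMIs of each of them.

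Within resting cells without the pair, 5.04% of 1111 genes were called, 7 higher in chase (0.63%) and 49 lower (4.41%), with a median of -0.06. Lars2 was again higher, 2.64-fold (1.91 to 3.62), with UMIs in 69 of 131 pulse and 23 of 28 chase cells, followed by B3gnt2, Cecr2, Pycard and Sptbn1. The lambda genes were lower, Iglc2 at 4429 CPM in pulse and 457 in chase, and of 13 late maturation genes 3 were lower, Ms4a1 (1753 and 753 CPM), Ltb and Cd83. Pou2f2 was the 1 transcription factor called of 18, at 448 CPM in pulse and 135 in chase. Bank1 was at 71 UMIs in pulse and 3 in chase, a ratio of 6.11 (2.01 to 30.3). Of 13 immediate early genes, 3 were lower, Egr1, Egr3 and Nr4a1, the last at 264 and 53.8 CPM. Rag1, Il7r and Ighm were not called there. Igkc was 1.76-fold higher in chase (1.60 to 1.93), under the 2-fold rule.

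The members were also set against mature B cells inside each library, where harvest time is shared. Over all members, 4.99% of 3567 genes were called in the same direction in both libraries (3.2% higher in members, 1.79% lower), and 8.24% in pulse and 29.2% in chase taken alone. For B precursors it was 8.31% of 2322 genes, 156 higher (6.72%) and 37 lower (1.59%), and 10.8% and 33.9% in each library alone. The chase mature B cells held 1 cell with 12358 UMIs past the limit for basophil or mast cell markers. Without it 153 genes were higher and 37 lower. Cells below the limit were kept. Natural killer markers were at 445 CPM in the chase mature B cells, with up to 42.2 UMIs per 10000 in a single cell. Endothelial markers were at 374 CPM there, with up to 37.7 UMIs per 10000 in a single cell. The comparison was not repeated without such cells. In pulse, 9 of the 143 mature B cells had fewer than 10 light chain UMIs and were kept. They held 69545 of the 460277 UMIs of that class. Their Ms4a1 level was 144 CPM, against 1099 CPM over all 143 cells. The median log2 ratio of all genes was 0.11 in pulse and 0.35 in chase. The genes used by the gates are no finding here. Rag1 had 86 pulse and 65 chase UMIs against 0 and 0, at least 24.3-fold and at least 3.64-fold higher. Il7r was 7.90-fold higher in pulse (4.91 to 13.4) and at least 12.9-fold in chase. Myl4, a myosin light chain gene, was at 328 and 479 CPM against 15.2 and 7.95, and Tifa, an adaptor of innate signalling, at 317 and 260 against 28.2 and 7.95. Xrcc6, the Ku70 end-joining factor, was 6.63-fold higher in pulse (3.52 to 13.8) and 19.1-fold in chase (3.37 to 762), the latter against 1 UMI.

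Among the lists, 12 of 12 mitosis genes, 10 of 11 S phase genes and 4 of 5 recombination genes (Rag1, Xrcc6, Hmgb1, Hmgb2) were higher in B precursors in both libraries. Lef1, Sox4 and Myb were the transcription factors that were higher, of 22 measured, and Pou2f2 was lower. Over all genes 6.72% were higher and 1.59% lower in both libraries. Late maturation and antigen presentation genes were lower in 8 of 13, including the MHC class II genes H2-Aa, H2-Ab1 and H2-Eb1. H2-Aa was 4.08-fold lower in pulse (3.52 to 4.74) and 19.4-fold lower in chase (15.8 to 23.8). Gpr183, a receptor that guides B cells in lymphoid tissue, was 3.54-fold and 53.6-fold lower, and Fcmr, the IgM Fc receptor, 3.32-fold and 14.8-fold lower. Fabp4 was also low, but 98.3% of its UMIs in chase mature B cells came from 1 cell.

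In resting cells without the pair, 8.4% of 476 genes were called against mature B cells in both libraries, 25 higher (5.25%) and 15 lower (3.15%), with 8.76% called in pulse and 21.1% in chase alone. Atp1b1, a sodium pump subunit, was 16.2-fold higher in pulse (10.3 to 26.7) and 31.7-fold in chase (11.9 to 119). Sox4, a factor of early B cell development, was 12.6-fold (8.17 to 20.4) and 8.61-fold higher (4.47 to 18.2), the latter 14.2-fold (6.15 to 40.4) without the mature cell of basophil or mast cell markers. Without that cell 22 genes were higher and 14 lower. Ebf1, Bach2, Sox4 and Spib were the 4 transcription factors called of 10, with Bach2, a repressor of plasma cell fate, at 597 and 700 CPM against 206 and 270. The chaperone gene Dnajc7 was 4.79-fold and 13.0-fold higher, and Rgs2, a regulator of G protein signalling, 2.87-fold and 5.97-fold. Ms4a1 was 1753 CPM against 1099 in pulse and 753 against 716 in chase. H2-Ab1, of MHC class II, was lower by 2.20-fold (1.87 to 2.60) and 7.33-fold (4.87 to 11.5).

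The reporter that was used for the sort was present as RNA in most members. A tdTomato UMI was found in 72.9% of pulse and 70.3% of chase members, and in 64.7% and 62.8% of myeloid cells at median depths of 7693 and 9968 UMIs. After thinning to 2000 UMIs the shares were 50.5% and 25.0% in members and 29.2% and 23.3% in myeloid cells. By level, resting cells without the pair had 1124 CPM of tdTomato in pulse (1005 to 1254) and 296 in chase (185 to 448), while cycling cells with the pair had 93.7 and 79.0. Myeloid cells had 188 and 135 CPM, T cells 1092 and 1171, mature B cells 921 and 692, and stromal cells 1966 and 1862. Within the pulse resting cells, tdTomato was at 1581 CPM in lambda cells, 1082 in mixed cells and 225 in kappa cells.

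Adipoq, the gene whose promoter drives the Cre, was low in the members. It was at 23.9 CPM in pulse and 11.6 in chase, below the 31.2 and 26.9 CPM of myeloid cells, and at 1601 and 1695 CPM in stromal cells. In resting cells without the pair it had 11 UMIs in pulse (38.2 CPM, 19.1 to 68.3) and 0 in chase. Whether the tdTomato RNA was made in these cells or came from the medium or from attached cells was not tested.

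**Figure D5:**
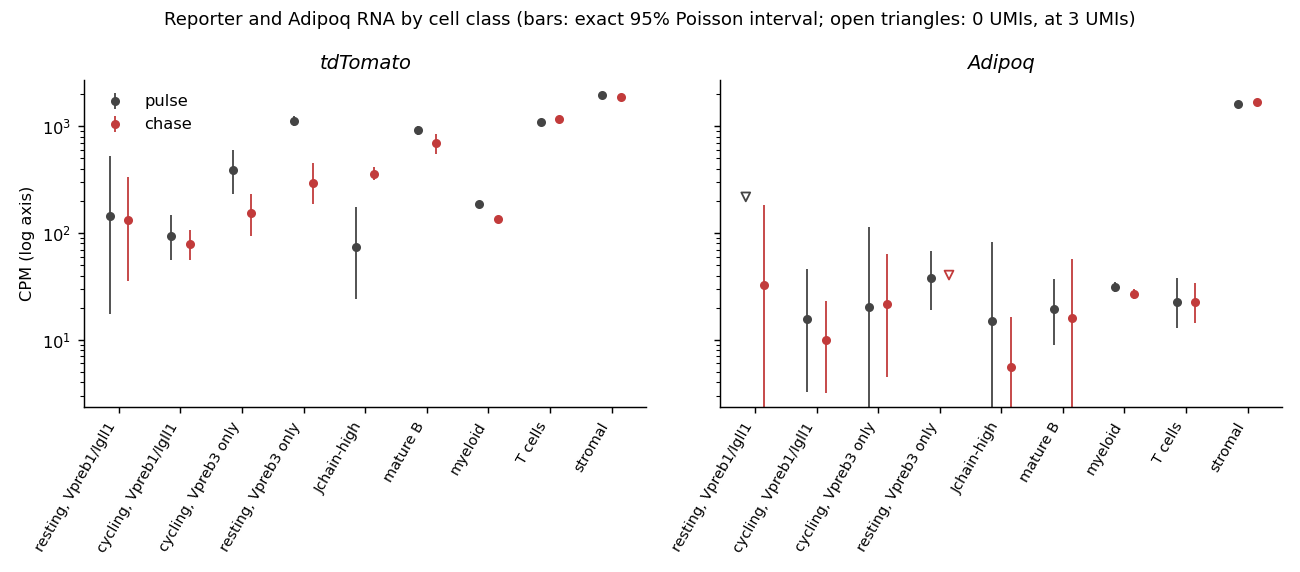
Level of tdTomato and Adipoq in CPM (vertical axes, log scale) in the 4 ranges of B precursors, the Jchain-high members, mature B, myeloid, T and stromal cells, pulse and chase; bars are exact 95% Poisson intervals and open triangles mark 0 UMIs at the level of 3 UMIs. tdTomato in pulse resting cells without Vpreb1 and Igll1 (1124 CPM) is near that of T cells, and Adipoq in every B class is far below the stromal level.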

How the data were processed

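The deposited matrices of the 2 droplet libraries are UMI counts that the authors left unscaled (Single Cell 3′ kit version 3.1, per the labels), made with Cell Ranger 6.0.2 per the file headers. Version 2.1.1 and the build mm10 stand in the submitters' processing notes, and which version applies was not settled. No source used here names the annotation release. 

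Cells, gates, ranges and summed levels were computed in python 3.11.15 with numpy 2.4.6, scipy 1.17.1, pandas 2.3.3, scanpy 1.11.5 and matplotlib 3.10.9. Members held 753806 UMIs in pulse and 1374854 in chase. Levels are UMIs of the summed cells scaled to 1000000. With 1 library per group no test was run. A gene was called when its 2 sums differed at least 2-fold with an exact conditional 95% interval that left out 1, among genes with at least 50 UMIs in both groups together. Levels carry exact Poisson and shares exact Clopper-Pearson intervals. For 0 UMIs the floor was 3 UMIs over the group. Scrublet was run in each library and marked cells were kept. The calling step was checked on simulated sums of counts. These held no differences between cells, so the check does not cover genes whose UMIs came mostly from 1 cell.

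Named genes were the 10 with the largest folds each way between libraries, the 12 each way against mature B cells, up to 4 of each list with the largest log2 ratios (transcription factors, recombination, signalling, receptors, late maturation, immunoglobulin, S phase, mitosis, survival, immediate early, interferon, glucocorticoid, clock, heat shock), and the gate's genes, markers and stage genes. Other called list members were named after their values were seen. In the clock list 0 of 1 gene measured was called among B precursors. The members, markers and lists were chosen with earlier results of these data known. Ranges, the plasma cell pattern, light chain classes and within-range comparisons were added after seeing the data. Promoters came from RefSeq on GRCm38.p6. Some genes are not reported here.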

Additional observations from a re-analysis of the deposited data

Results flagged for a closer look

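Barcodes that failed the cell filters, which no comparison used, also met the gate: 7 in the pulse library and 8 in the chase library, with median totals of 1642 and 3482 UMIs. Gar1, a small nucleolar RNA-binding protein gene, lay on opposite sides in the 2 libraries when B precursors were set against mature B cells. Its log2 ratio was -1.05 in pulse (22 UMIs in B precursors, 39 in mature B cells) and 1.82 in chase (73 and 3 UMIs). The difference between the libraries was not tested.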

How the results depend on the processing

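The share of members in pulse, 1.93%, was 2.51% with at least 1 UMI of the 3 surrogate genes, 1.63% with at least 3, 0.266% on Vpreb1 and Igll1 alone, 2.71% with 1 Ighd UMI allowed, 1.18% with at least 2000 UMIs and 0.995% thinned to 2000 UMIs. The chase share, 1.40%, was 1.74% with at least 1 UMI, 0.426% on Vpreb1 and Igll1, 1.14% with under 5% mitochondrial UMIs, 1.02% thinned and 1.03% without the plasma cell pattern and further lineages. The chase over pulse ratio, 0.725, was 1.60 on Vpreb1 and Igll1, 1.20 with at least 2000 UMIs and 1.03 thinned. Genes higher and lower in chase, 82 and 768, numbered 189 and 327 scaled by the median of gene ratios, 187 and 327 on totals without immunoglobulin, ribosomal and mitochondrial genes, 138 and 1392 at 20 UMIs, 40 and 382 at 100 UMIs, 156 and 1528 at 1.5-fold, 38 and 103 on Vpreb1 and Igll1, and 265 higher by the mean of the cells' own CPM. Within sets added after seeing the data they were 147 and 339 in B precursors, 33 and 49 in cycling cells with the pair, and 7 and 49 in resting cells without it. The log2 ratio of Igkc turned negative, to -1.27 on Vpreb1 and Igll1, -1.16 in B precursors and -0.93 in cycling cells with the pair. Against mature B cells, 114 genes higher and 64 lower became 58 and 13 thinned, 188 and 164 at 20 UMIs, 61 and 27 at 100 UMIs, 38 higher without cycling cells, and 37 lower in B precursors. There Igkc turned to -0.60 in pulse and -1.38 in chase in B precursors (-0.60 and -1.47, with 37 genes lower, also without the mature cell of basophil or mast cell markers), and Prtn3 to 0.45 in chase against mature cells with at least 2 Ighd UMIs. The pulse cycling share, 18.2%, was 30.1% thinned, and the shares with tdTomato, 72.9% and 70.3%, were 50.5% and 25.0% thinned, and 59.8% in chase B precursors. The cause of these moves was not tested. No paired analysis was possible because each harvest time has 1 library, which also leaves no replicate to leave out. Pulse members had a median of 2120 UMIs, so genes of low level were often missed in a cell.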
